A study of Mus musculus with 58 samples.

Results

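The transcripts described here encode the enzymes of the upper arm of glycolysis, and were followed over the day in the retinas of control and diabetic mice. The 10 members are Hk1, Hk2, Gpi1, Pfkl, Pfkm, Pfkp, Pfkfb3, Aldoa, Aldoc and Tpi1, taken by symbol from the 52459 symbols of the deposited count table. Membership followed the symbol alone, but the list was chosen with earlier results of these data known. All 10 were present and passed the expression minimum, a median above 4 normalized counts over all libraries, which 19138 genes passed. Control mice were wild-type males labelled C57/BL/6, the littermates of heterozygous males labelled C57BL/6-Ins2Akita/J, in which a mutation of insulin 2 leads to misfolded insulin, loss of beta cells and hyperglycemia. All mice came from Ins2Akita males bred with C57Bl6 females, lived in equal phases of light and dark, were 4 months old and were perfused with cold saline before the retina was taken. No female was included, and the retinas of the dark phase were handled under dim red light. Zeitgeber time (ZT) counts the hours after lights on. Control retinas gave 5, 6, 5, 5, 5 and 4 libraries at ZT1, ZT5, ZT9, ZT13, ZT17 and ZT21, and diabetic retinas 5, 5, 5, 4, 4 and 5 libraries.

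In the upper arm of glycolysis, hexokinases trap glucose in the cell as a phosphate, a glucose phosphate isomerase turns it into a fructose phosphate, phosphofructokinase commits it to breakdown, aldolase splits the product and triose phosphate isomerase interconverts its products. The retina is known for turning much of its glucose into lactate even where oxygen is present, a property attributed mainly to photoreceptors, which hold most of the retina's Hk2. Phosphofructokinase is a tetramer of the subunits encoded by Pfkl, Pfkm and Pfkp, and Pfkfb3 makes the sugar phosphate that activates it. The libraries come from whole retinas, so fewer cells of a type and less RNA per cell cannot be told apart.

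The libraries held 7773117 to 22147398 counted reads, with a median of 15406440.5. No 2 libraries were near-copies: over the 113 pairs within groups, the chi-square statistic divided by its degrees of freedom was never below 1.94. All 5 rod markers were present and summed to 483486 to 741268 normalized counts per library. Lens markers summed to 30767 normalized counts in control ZT1 replicate 6, 24516 in control ZT21 replicate 2 and 21158 in control ZT17 replicate 5, against at most 668 in the other 55 libraries. Within groups, the first component of variation held 41.8% of the variance and correlated with the GC trend of the libraries (r = 0.989 over 58 libraries), where the GC trend is the mean log2 deviation of GC-rich genes minus that of GC-poor genes. Across the same libraries, the within-group deviations of Gpi1, Aldoa, Hk1 and Aldoc correlated with the GC trend with r between 0.81 and 0.85, that of Tpi1 with r = 0.64, and those of Hk2 and Pfkp with r = 0.16 and -0.14.

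The promoters of Hk2, Pfkl and Pfkp are shown because these members had the smallest unadjusted p-values in the test of a difference in rhythm given later, and because each has a single start in the RefSeq table (GRCm38.p6). Each window holds 250 bases before the start and 50 after it, 5′ to 3′ on the strand of the gene, at chr6:82774405-82774704, minus strand (Hk2), chr10:78009758-78010057, minus strand (Pfkl) and chr13:6648722-6649021, minus strand (Pfkp). Capitals mark ACGTG and GCGTG on either strand, the letters at the core of the sites bound by hypoxia-inducible factors.
Hk2: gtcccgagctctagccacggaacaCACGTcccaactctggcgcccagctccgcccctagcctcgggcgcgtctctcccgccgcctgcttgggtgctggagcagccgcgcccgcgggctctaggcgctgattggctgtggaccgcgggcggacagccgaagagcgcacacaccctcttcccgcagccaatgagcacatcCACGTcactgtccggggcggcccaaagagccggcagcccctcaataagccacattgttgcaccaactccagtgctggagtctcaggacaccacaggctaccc
Pfkl: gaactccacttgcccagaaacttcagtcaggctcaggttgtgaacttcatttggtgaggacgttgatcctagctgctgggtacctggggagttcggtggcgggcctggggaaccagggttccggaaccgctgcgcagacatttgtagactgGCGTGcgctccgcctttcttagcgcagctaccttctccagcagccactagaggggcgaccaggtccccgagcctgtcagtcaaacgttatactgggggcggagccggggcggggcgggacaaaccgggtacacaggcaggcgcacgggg
Pfkp: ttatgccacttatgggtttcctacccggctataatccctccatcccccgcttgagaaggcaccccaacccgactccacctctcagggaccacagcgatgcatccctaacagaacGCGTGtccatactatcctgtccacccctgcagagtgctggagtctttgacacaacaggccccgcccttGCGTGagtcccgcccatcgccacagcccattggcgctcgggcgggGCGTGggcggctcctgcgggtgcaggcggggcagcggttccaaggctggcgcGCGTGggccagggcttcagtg
Hk2 held ACGTG in 2 places, both on the opposite strand, with first bases at -226 and -52 from the start. Pfkl held GCGTG once, at -99, and Pfkp held it 4 times, at -136, -68, -23 and 29, each on the strand of the gene. The whole Pfkl window lies within the Gencode M21 span of the gene, which reaches to chr10:78010083. That annotation thus places the start of Pfkl upstream of the RefSeq start used here. The windows of Gpi1 and Tpi1, which also have a single start, held neither. Over all 32851 windows of this length, 19.6% held ACGTG, 32.4% held GCGTG and 7.15% held CACGTG, the E-box, which contains ACGTG on both strands. Among the 18 windows of the members, 9 held ACGTG, 8 held GCGTG and 2 held CACGTG, these being windows of Pfkm and Pfkfb3. These matches are descriptions of letters, and binding was not measured.

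On a scale of normalized counts per kilobase of the principal transcript, Aldoa had the highest level among the members, 18703 ± 3939 (SD) in the 30 control libraries and 16976 ± 2737 (SD) in the 28 diabetic ones. The isomerases followed, with Tpi1 at 3929 ± 748 and Gpi1 at 3653 ± 613 in control libraries, levels that overlapped within their spread over time points. Hk1 had 3191 ± 402 and Pfkp 2728 ± 356, and Hk2 had 2034 ± 582, the widest spread relative to its mean. Aldoc (1643 ± 182) and Pfkl (1489.6 ± 282) overlapped as well, whereas Pfkm (623 ± 49.95) and Pfkfb3 (166 ± 25.9) lay below all others in every library. The order was the same in diabetic libraries. Per kilobase of all annotated exons, Hk2 moved from the sixth to the third place and Pfkp from the fifth to the seventh, so the middle of the order depends on the length used. The raw counts behind these levels were 12313 to 55350 per library for Aldoa and 326 to 1185 for Pfkfb3, the least abundant member.

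**Figure D1:**
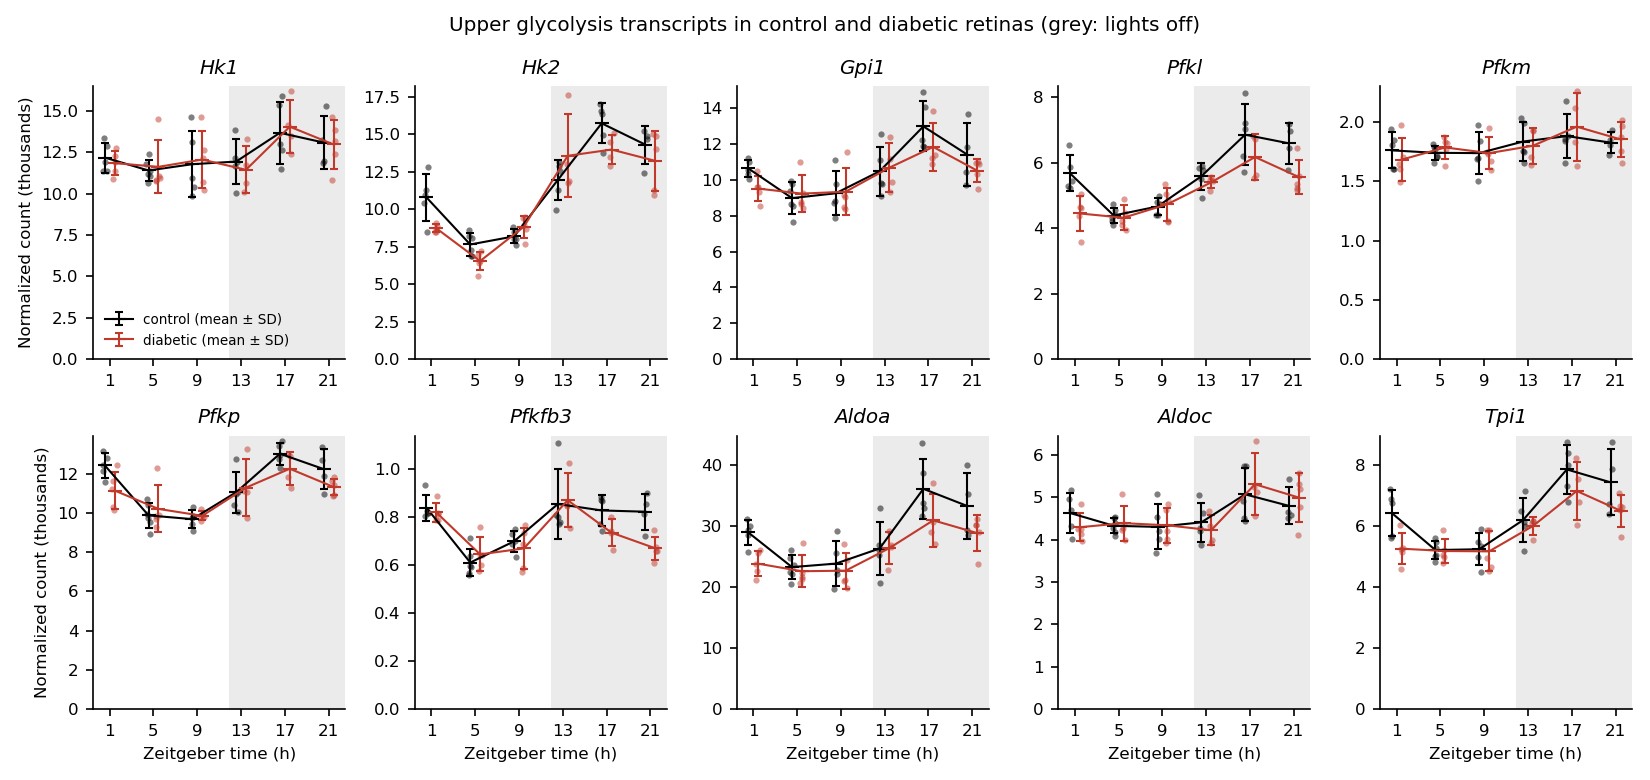
Normalized counts (y) against Zeitgeber time in hours (x) for the 10 transcripts, with 1 point per library, means and SD bars for control (black) and diabetic (red) retinas and lights off in grey. Hk2 had the highest ratio between group means, going from a mean of 7651 at ZT5 to 15731 at ZT17 in control retinas, while Pfkm stayed between 1737 and 1880.

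The hexokinases differed in how far they moved over the day. Hk2, the inducible hexokinase of photoreceptors, rose between mid-day and mid-night in both genotypes, by 2.04-fold in control and 2.12-fold in diabetic retinas. At ZT5, the 6 control libraries held 6879 to 8618 with a median of 7665 normalized counts, and the 5 diabetic libraries 5580.1, 6418, 6580.2, 6958 and 7196. At ZT17, the control libraries held 14967, 16331, 16581, 13766 and 17009.6, and the diabetic libraries 13476, 15085, 12893 and 14471. All libraries of ZT17 lay above all of ZT5 in either genotype, with a log2 difference of 1.03 (SE 0.09, adjusted p = 7.16e-12) in control and 1.09 (SE 0.10, adjusted p = 3.42e-11) in diabetic retinas by edgeR's quasi-likelihood test. Hk1, the constitutive hexokinase of neurons, averaged 11401 ± 618 (SD, n = 6) at ZT5 and 13676 ± 1885 (SD, n = 5) at ZT17 in control retinas. Its log2 differences of 0.25 (SE 0.10, adjusted p = 0.0636) and, in diabetic retinas, 0.27 (SE 0.11, adjusted p = 0.125) did not pass the threshold, and the libraries overlapped. Gpi1, the isomerase that follows, rose from 8975 ± 880.1 (SD, n = 6) at ZT5 to 12968 ± 1395 (SD, n = 5) at ZT17 in control retinas, without overlap, and from 9225 ± 1025 (SD, n = 5) to 11825 ± 1334 (SD, n = 4) in diabetic retinas, where diabetic ZT5 replicate 4 (10974) lay among the ZT17 libraries. The log2 differences of Gpi1 were 0.52 (SE 0.09, adjusted p = 5.65e-05) and 0.35 (SE 0.10, adjusted p = 0.0205).

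Of the phosphofructokinase subunits, Pfkl had the largest difference. Pfkl, the liver-type subunit, held 4087 to 4757 with a median of 4359.6 normalized counts at ZT5 in control libraries and 7019, 7224, 8119, 6201 and 5734 at ZT17. In diabetic libraries it held 4216, 4087, 3939.6, 4895 and 4479 at ZT5 and 6720.4, 6824, 5628 and 5534 at ZT17. The ZT17 libraries lay above the ZT5 libraries in either genotype, with log2 differences of 0.64 (SE 0.08, adjusted p = 6.91e-08) and 0.51 (SE 0.09, adjusted p = 7.95e-05). Pfkp, the platelet-type subunit and the most abundant of them per kilobase, rose from 9878 ± 642 (SD, n = 6) to 13022 ± 555 (SD, n = 5) in control retinas, a log2 difference of 0.39 (SE 0.07, adjusted p = 3.48e-05), and from 10209 ± 1204 (SD, n = 5) to 12256 ± 838 (SD, n = 4) in diabetic retinas, 0.26 (SE 0.07, adjusted p = 0.0198). In the diabetic group, ZT5 replicate 5 (12313) lay within the range of the ZT17 libraries. Pfkp shares 748 exonic bases with Pitrm1 on the opposite strand, a gene with a mean of 457 raw counts, and since the strand setting of the counting is not given, reads in that stretch cannot be told apart. Pfkm, the muscle-type subunit, had log2 differences of 0.10 (SE 0.07, adjusted p = 0.34) and 0.13 (SE 0.08, adjusted p = 0.385), neither of which passed.

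Pfkfb3, whose kinase activity makes the activator of phosphofructokinase, had its highest mean at ZT13 in both genotypes. In control retinas this depended on ZT13 replicate 5, which held 1112 normalized counts. The other control libraries of ZT13 held 773 to 809, within the range of the ZT17 libraries. At ZT5 the control libraries held 559 to 716 with a median of 595 normalized counts and at ZT17 744, 885, 869.8, 773 and 872, so that the time points did not overlap. The diabetic libraries held 645, 578, 645, 761 and 599 at ZT5, 744, 803, 734 and 664 at ZT17 and 661, 661, 609, 678 and 746 at ZT21. In diabetic retinas the ZT17 libraries overlapped those of ZT5, and by ZT21 the range of values was within that of ZT5. The log2 difference between ZT17 and ZT5 was 0.43 (SE 0.08, adjusted p = 0.000297) in control and 0.18 (SE 0.09, adjusted p = 0.249) in diabetic retinas, and the difference between these differences was -0.25 (SE 0.13, unadjusted p = 0.0506, adjusted p = 1.00).

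Aldoa, the ubiquitous aldolase, rose from 23239.9 ± 2001 (SD, n = 6) at ZT5 to 36052 ± 4961 (SD, n = 5) at ZT17 in control and from 22562 ± 2621 (SD, n = 5) to 30897 ± 4326 (SD, n = 4) in diabetic retinas. The log2 differences were 0.62 (SE 0.10, adjusted p = 1.92e-05) and 0.45 (SE 0.11, adjusted p = 0.00747). The control libraries did not overlap, and in diabetic retinas ZT5 replicate 4 (27129) lay just above the lowest ZT17 library (27009). Aldoc, the aldolase of brain, had differences of 0.22 (SE 0.08, adjusted p = 0.0646) and 0.27 (SE 0.09, adjusted p = 0.0682), with overlapping libraries and no call. Tpi1, the triose phosphate isomerase, rose from 5208 ± 300.3 (SD, n = 6) to 7848 ± 791 (SD, n = 5) in control retinas and from 5177 ± 409 (SD, n = 5) to 7143 ± 950.2 (SD, n = 4) in diabetic retinas. Its log2 differences were 0.58 (SE 0.09, adjusted p = 3e-06) and 0.46 (SE 0.10, adjusted p = 0.00106), without overlap in either genotype.

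In all, 7 of the 10 members were higher at ZT17 than at ZT5 in control retinas and none was lower, where 7.42% of the 19138 genes tested were called higher and 7.67% lower. In diabetic retinas, 6 of 10 were higher and none lower, where 3.63% of all genes were called higher and 3.73% lower. The libraries of ZT17 and ZT5 did not overlap for 7 members in control retinas, all with ZT17 higher, against 4.28% of all genes, and for Hk2, Pfkl and Tpi1 in diabetic retinas, against 3.4% of all genes. The median log2 difference of the members was 0.48 in control and 0.31 in diabetic retinas, against -0.03 and -0.02 over all genes tested. The difference of the differences had a median of -0.13 over the members and 0.01 over all genes. None of the 10 members and none of the 19138 genes passed for it by edgeR's quasi-likelihood test, and 0 members and 731 genes (3.82%) had an unadjusted p under 0.05. Of the other opposed time points, Hk2, Pfkl, Pfkp, Aldoa and Tpi1 (5 members) in control and Hk2, Aldoa and Tpi1 (3 members) in diabetic retinas were higher at ZT21 than at ZT9, against 1.2% and 2.19% of all genes called higher. Between ZT13 and ZT1, Hk2 was the member called, in diabetic retinas only (log2 difference 0.63, SE 0.10, edgeR adjusted p = 0.000179), against 0.888% of all genes, with 0.15 (SE 0.10, adjusted p = 0.741) in control retinas; the difference between genotypes in this contrast was not tested.

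Some of these calls rested on single libraries. In diabetic retinas, Aldoa lost its call without ZT17 replicate 3 (log2 difference 0.35, edgeR adjusted p = 0.0822), and Gpi1 lost it without the same library (0.27, adjusted p = 0.160) or without ZT5 replicate 1, 2 or 3 (log2 differences of 0.32 to 0.34, adjusted p between 0.0502 and 0.0594). Pfkp lost its call in diabetic retinas without ZT5 replicate 4, ZT17 replicate 4 or ZT17 replicate 5 (0.22 or 0.23, adjusted p between 0.0549 and 0.0886). Hk1 gained a call in control retinas without ZT9 replicate 4 (edgeR adjusted p = 0.0498) or ZT17 replicate 5 (0.0296) and in diabetic retinas without ZT5 replicate 4 (0.0274). Aldoc gained one in control retinas without ZT17 replicate 4 (edgeR adjusted p = 0.0384) or ZT17 replicate 5 (0.0350) and in diabetic retinas without ZT5 replicate 4 (0.0248) or ZT17 replicate 4 (0.0305). Without the 3 libraries with lens transcripts, Hk1 and Aldoc also passed in control retinas (edgeR adjusted p = 0.0296 and 0.0346), and with DESeq2 Aldoc passed in diabetic retinas (adjusted p = 0.0479). The GC trend was higher at ZT17 than at ZT5, with means of 0.230 and -0.115 in control and 0.162 and -0.034 in diabetic libraries. Diabetic ZT17 replicate 3, without which Aldoa and Gpi1 lost their calls, had a GC trend of 0.675. The other libraries of its group had -0.034 to 0.027. With the counts corrected for trends of GC content and length, Hk2 kept log2 differences of 0.95 and 1.03, and Pfkl had 0.51 and 0.44. Within groups, Gpi1 and Aldoa (both r = 0.85) and Tpi1 (r = 0.64) followed the GC trend more than Hk2 and Pfkl (r = 0.16 and 0.42). The corrected sizes of Gpi1, Aldoa and Tpi1 are not given here. The difference of Hk1 fell to 0.12 in control retinas under this correction, while the other members stayed on the side of the threshold they had, apart from Hk1 and Aldoc in diabetic retinas, which passed (adjusted p = 0.0497 and 0.0148). The summed markers of the retinal pigment epithelium, all 5 of them present, also moved with time, with medians of 940 at ZT5 and 2382 at ZT17 in control libraries (ranges 480 to 2141 and 1694 to 2939) and of 458 and 1871 in diabetic libraries (340 to 501 and 973 to 2654). The summed bipolar cell markers ranged from 19650 to 21681 at ZT5 and from 23185 to 25554 at ZT17 in control libraries and from 17744 to 20645 and 21739 to 24372 in diabetic libraries, without overlap in either genotype. The Muller glia markers ranged from 39883 to 45113 and 48316 to 54228 in control libraries, without overlap, and from 37282 to 49426 and 46517 to 55780 in diabetic libraries. In control libraries the amacrine cell markers were also higher at ZT17 (9639 to 10641 and 10720 to 11682), and the endothelial markers lower (3343 to 3656 and 3014 to 3267). Rod markers overlapped between these time points in both genotypes. The part of these cell types in the differences was not tested.

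**Figure D2:**
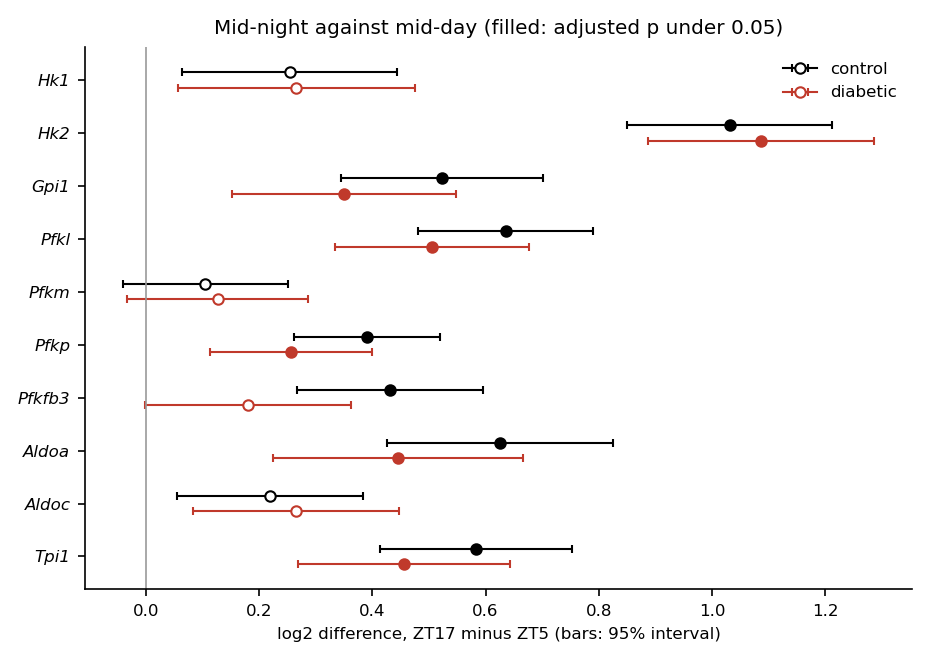
The log2 difference between ZT17 and ZT5 (x, with 95% intervals) for each member (y) in control (black) and diabetic (red) retinas, filled where the adjusted p is under 0.05. Hk2 stands apart at 1.03 and 1.09, and no point lies below 0.

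A transcript was called rhythmic with an unadjusted empirical JTK_CYCLE p under 0.05 and a highest library more than 25% above the lowest. The study took the fold predicted by its empirical JTK_CYCLE fit, which was not computed here, and the distance between single libraries is always at least that between group means. By the library-based rule 9 of the 10 members were rhythmic in control retinas, all but Pfkm, against 21.8% of all genes. In diabetic retinas 7 were rhythmic, all but Hk1, Pfkm and Pfkfb3, against 23.9% of all genes. Hk2 and Pfkl had p = 1e-06 in both genotypes, the smallest value the 1000000 shuffled series of the permutation can give. In control retinas p was 1.1e-05 for Pfkp and Tpi1, 3.1e-05 for Aldoa, 4.8e-05 for Pfkfb3 and 0.000193 for Gpi1, and these with Hk2 and Pfkl are the 7 members that also passed after adjustment over all genes (8.42% of genes). In diabetic retinas it was 7e-06 for Tpi1, 8.2e-05 for Aldoa and 0.00195 for Gpi1 and Pfkp, and 6 members passed after adjustment (10.4% of genes). With the fold taken between the highest and the lowest mean of a time point, an alternative chosen after seeing the data, 7 members were rhythmic in control retinas, against 13.2% of all genes, and 6 in diabetic retinas, against 14.2%. The members lost were Hk1 and Aldoc in control retinas, whose means differed by 1.20-fold and 1.18-fold, and Pfkp in diabetic retinas (1.24-fold). The permutation p of Hk1, of Aldoc and of Pfkfb3 in diabetic retinas lay close to the threshold. Hk1 had a permutation p of 0.0362 in control and 0.0608 in diabetic retinas, Aldoc 0.0493 and 0.0491, and Pfkfb3 0.0548 in diabetic retinas.

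These marginal calls changed with single libraries and time points. Leaving out control libraries one at a time ended the call of Aldoc in 20 of 30 cases, up to a permutation p of 0.116 without control ZT9 replicate 3, and in 15 of 28 in diabetic retinas, up to p = 0.121 without diabetic ZT17 replicate 3. It also lost the control call without the 3 libraries with lens transcripts (permutation p = 0.0765). Hk1 lost its control call in 11 of 30 fits, up to a permutation p of 0.0887 without control ZT9 replicate 1, and gained one in diabetic retinas in 6 of 28, down to 0.0113 without diabetic ZT9 replicate 4. Pfkfb3 gained a call in diabetic retinas in 13 of 28 fits, down to a permutation p of 0.0293 without diabetic ZT5 replicate 4. Of the 6 fits that left out a time point, Aldoc was called in 2 in either genotype (permutation p up to 0.193 in control and 0.291 in diabetic retinas), Hk1 in 3 in control retinas (up to 0.215) and 1 in diabetic retinas, and Pfkfb3 in 3 in diabetic retinas. With TMM factors, Aldoc lost its control call (permutation p = 0.0544) and Pfkfb3 gained a diabetic one (0.0491), and Hk1 gained a diabetic one with the GC and length correction (0.0386). Hk2, Gpi1, Pfkl, Pfkp, Aldoa and Tpi1 were called in both genotypes in every fit that left out a library or a time point, as was Pfkfb3 in control retinas, and Pfkm in none. A rhythm called in control and not in diabetic retinas, as for Hk1 and Pfkfb3, is therefore not shown to differ, and the test of the difference follows.

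All 10 fitted acrophases, the peaks of a 24 h cosine, fell in the dark phase in both genotypes, between ZT17.3 and ZT19.8 in control and between ZT16.2 and ZT18.7 in diabetic retinas. The acrophase of Hk2 was ZT18.4 ± 0.27 h (SE) in control and ZT16.9 ± 0.36 h (SE) in diabetic retinas. Pfkl peaked at ZT18.8 ± 0.40 h (SE) and ZT16.8 ± 0.54 h (SE), and Pfkp at ZT19.8 ± 0.47 h (SE) and ZT18.5 ± 0.95 h (SE). Aldoa peaked at ZT19.2 ± 0.58 h (SE) and ZT17.9 ± 0.67 h (SE), and Tpi1 at ZT19.0 ± 0.48 h (SE) and ZT17.6 ± 0.61 h (SE). In each of the 10 members the diabetic acrophase was earlier than the control one. The advance was 2.02 h (SE 0.67) for Pfkl, 1.53 h (SE 1.08) for Gpi1, 1.44 h (SE 0.45) for Hk2, 1.43 h (SE 0.77) for Tpi1, 1.32 h (SE 0.89) for Aldoa and 1.30 h (SE 1.06) for Pfkp. The 95% interval of the difference, diabetic minus control, lay below 0 for Hk2 (-2.32 to -0.56 h) and Pfkl (-3.34 to -0.71 h), and reached past it for the others, as in Tpi1 (-2.94 to 0.08 h) and Pfkp (-3.38 to 0.78 h). Hk1, Pfkm, Pfkfb3 and Aldoc had standard errors of 1.73 to 2.97 h, larger than their differences. With any 1 library left out, the difference stayed between -1.60 and -1.11 h for Hk2 and between -2.28 and -1.73 h for Pfkl, while it reached above 0 in some such fits for Hk1 (up to 0.24 h), Pfkm (0.57 h) and Pfkfb3 (0.50 h). With a time point left out, it reached above 0 for Hk1 (up to 0.59 h), Pfkm (1.53 h), Pfkfb3 (3.30 h) and Aldoc (0.83 h), and stayed below 0 for the others. With the GC and length correction, the difference of Pfkm was 0.33 h. An earlier acrophase was common among all transcripts, being found in 70.6% of the 2268 that were rhythmic in both genotypes, with a median difference of -0.63 h, against -1.43 h over the 7 members rhythmic in both.

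The relative amplitude, the amplitude of the cosine in percent of its mean, was largest for Hk2, at 36.4% ± 2.52 (SE) in control and 37.5% ± 3.6 (SE) in diabetic retinas, and did not differ beyond its error. Pfkl had 22.8% ± 2.4 (SE) and 17.8% ± 2.57 (SE), Tpi1 21.96% ± 2.76 (SE) and 17.1% ± 2.73 (SE), and Aldoa 22.7% ± 3.51 (SE) and 16.7% ± 2.95 (SE). Pfkp went from 15.3% ± 1.92 (SE) in control to 9.13% ± 2.25 (SE) in diabetic retinas, and Pfkfb3 from 13.7% ± 3.17 (SE) to 5.2% ± 3.99 (SE), the widest distance among the members. The group means of Pfkfb3 still differed by 1.40-fold in control and 1.35-fold in diabetic retinas, highest at ZT13 and lowest at ZT5 in both. The control maximum depended on ZT13 replicate 5. In diabetic retinas its edgeR test of time point passed (adjusted p = 0.000789), while that of the cosine did not (adjusted p = 0.622). In diabetic retinas the cosine amplitude alone thus does not describe its change over the day.

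**Figure D3:**
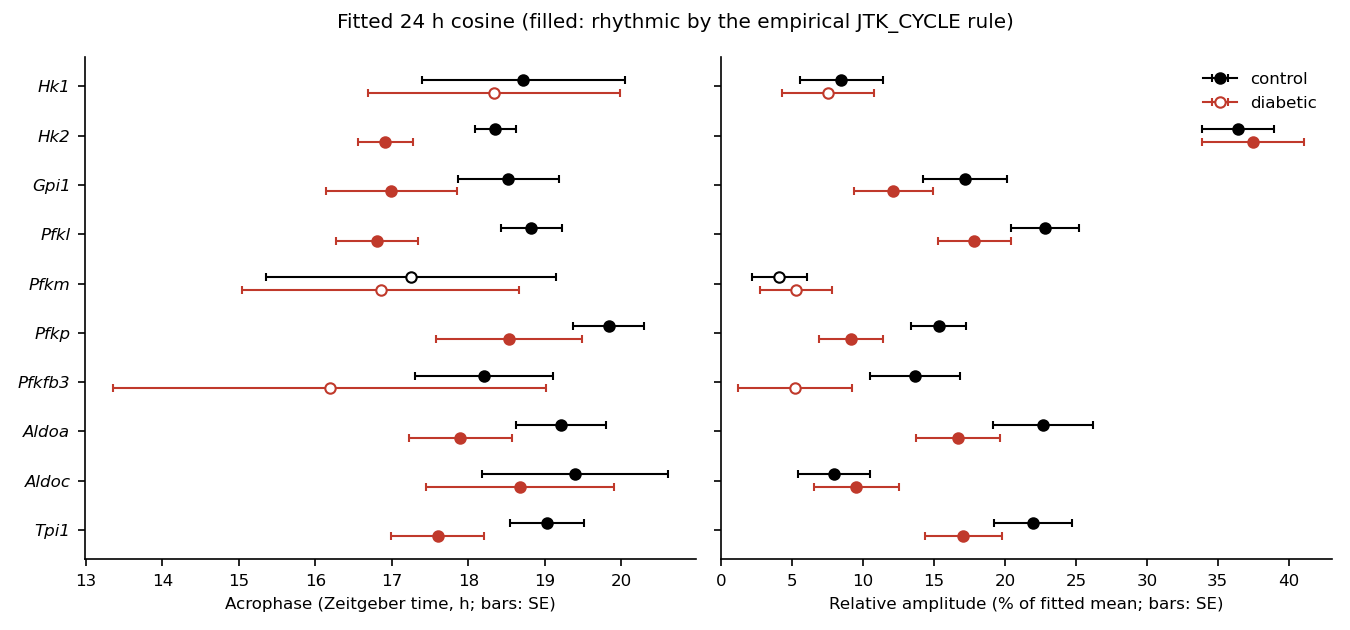
Acrophase in Zeitgeber time (left) and relative amplitude in percent of the fitted mean (right) for each member in control (black) and diabetic (red) retinas, with SE bars and filled points where the transcript was called rhythmic. Every red point lies left of its black one in the acrophase panel, with bars that separate clearly for Hk2 and Pfkl.

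Whether the rhythm differed between genotypes was tested with an interaction of genotype and a 24 h cosine in edgeR's quasi-likelihood fit. None of the 10 members passed after adjustment, and none of the 19138 genes did (0%). The unadjusted p of the edgeR fit was 0.00243 for Hk2, 0.00271 for Pfkl and 0.0484 for Pfkp. These 3 of 10 members were under 0.05, against 657 genes or 3.43% of all. Tpi1 had an unadjusted p of 0.0572, Aldoa 0.120, Pfkfb3 0.131 and Gpi1 0.141, and the edgeR adjusted p of every member was 1.00. A rank-based regression, run for the 9 members rhythmic in either genotype, gave unadjusted p = 0.00839 for Hk2, 0.00677 for Pfkl and 0.0106 for Pfkp, with adjusted p of at least 0.416 over 6472 transcripts and none called. The study had picked Hk2, Pfkl and Pfkp from these same samples, so their place among the small p-values is not independent evidence. With genotype and time point as factors, 0 members passed and Hk2 and Pfkl had unadjusted p = 0.00526 and 0.0216, against 2.69% of all genes under 0.05.

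Without the 3 libraries with lens transcripts, all of them control, the unadjusted p in edgeR was 0.000297 for Hk2, 0.000471 for Pfkl, 0.0190 for Pfkp and 0.0324 for Tpi1, and the smallest adjusted p of a member was 0.589. Hk2 and Pfkl stayed under an unadjusted p of 0.05 with any library left out, with the largest values being 0.0120 for Hk2 without diabetic ZT13 replicate 5 and 0.00722 for Pfkl without diabetic ZT9 replicate 3. Pfkp stayed under it in 21 of 58 such fits. Diabetic ZT13 replicate 5 held 17617 normalized counts of Hk2 against 11738 to 13028 in the other 3 libraries of its group, and also the highest summed markers of the retinal pigment epithelium of all libraries (4480 normalized counts).

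Levels of the members differed little between genotypes when time was set aside. Over all time points 0 of 10 members were called, where 2.98% of all genes were, and DESeq2 called none of them either. The largest differences, diabetic minus control, were those of Aldoa, -0.14 (SE 0.07, unadjusted p = 0.0386, adjusted p = 0.286), and Pfkl, -0.13 (SE 0.06, unadjusted p = 0.0329, adjusted p = 0.268), by edgeR's quasi-likelihood test, which are the 2 members with an unadjusted p under 0.05, against 15.5% of all genes. Of the members, 7 were lower and 3 higher in diabetic retinas, with a median log2 difference of -0.07 against 0.00 over all genes. The 95% interval of Hk2 ran from -0.29 to 0.13, since this fit leaves the daily swing in the spread. With the time point as a further term, Pfkl was called (log2 difference -0.13, edgeR adjusted p = 0.0268) and was the only member to be. The share of all genes called with that term is not given here, so this call cannot be set against it. Over all time points, median summed markers were lower in diabetic libraries for rods (569557 against 597002), cones (11035 against 11760) and bipolar cells (20277 against 21357). They were also lower for retinal pigment epithelium (1468 against 2170, ranges 340 to 4480 and 410 to 4207) and microglia (256 against 286). The same held for Muller glia (45769 against 46254), endothelium (3253 against 3269) and amacrine cells (10313 against 10317). Those of ganglion cells were higher (8549 against 8376). The part of these cell types in the differences was not examined.

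At single time points, no member passed in any of the 60 tests, where 0.0105%, 0.0209%, 0.00523%, 0%, 0.167% and 0% of all genes passed from ZT1 to ZT21. An unadjusted p under 0.05 was found in 9 of the 60, against 5.68% of all genes and time points, and all 9 were lower in diabetic retinas. Of these, 5 fell at ZT1, an hour after lights on, and 3 at ZT21. At ZT1, the control libraries held 6548, 5881, 5286, 5243 and 5449.7 normalized counts of Pfkl and the diabetic libraries 5036, 4615, 4646, 4383 and 3584, and all diabetic libraries lay below all control ones, as in 0.475% of all genes. The difference of Pfkl was -0.34 (SE 0.08, unadjusted p = 0.000121, adjusted p = 0.225) by edgeR's quasi-likelihood test. At the same time point, Hk2 held 12823, 11256, 10952, 10435 and 8489.6 in control and 8699, 8459, 8877, 8512 and 9104 in diabetic libraries, a difference of -0.30 (SE 0.10, unadjusted p = 0.00327, adjusted p = 0.613). Here the control library with the lowest value (8490) is 1 of those with lens transcripts, and without these the difference was -0.38 (adjusted p = 0.382). Tpi1 had -0.28 (SE 0.09, unadjusted p = 0.00284, adjusted p = 0.586), Aldoa -0.27 (SE 0.11, unadjusted p = 0.0133, adjusted p = 0.745) and Pfkp -0.15 (SE 0.07, unadjusted p = 0.0355, adjusted p = 0.874). The median log2 difference at ZT1 was -0.15 over the members, all 10 of them lower in diabetic retinas, against 0.01 over all genes. Summed markers of several cell types also had lower medians in diabetic libraries at ZT1, namely 549415 against 635716 normalized counts for rods (ranges 548058 to 591736 and 574409 to 641504), 10392 against 11771 for cones, 18742 against 20321 for bipolar cells, 42839 against 46036 for Muller glia and 244 against 285 for microglia. Medians were also lower for amacrine cells (9444 against 10354), ganglion cells (8029 against 8627), endothelium (3232 against 3305) and retinal pigment epithelium (807 against 854). For rods, cones and bipolar cells the diabetic median was lower at every other time point as well. The part of these cell types in the differences at ZT1 was not tested. With the correction for GC content and length, Pfkl passed at ZT1 (log2 difference -0.36, edgeR adjusted p = 0.0288), and with DESeq2 it had an adjusted p of 0.0680. The share of all genes that passed at ZT1 after this correction is not given here.

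At ZT5 the lowest point of Hk2 was lower still in diabetic retinas, with -0.23 (SE 0.09, unadjusted p = 0.0178, adjusted p = 0.704) by edgeR's quasi-likelihood test. At ZT9 and ZT13 the sign of Hk2 was the opposite, with log2 differences of 0.11 (SE 0.10) and 0.19 (SE 0.10), neither past the threshold. At ZT21, Pfkfb3 had -0.30 (SE 0.09, unadjusted p = 0.00194, adjusted p = 0.552), with 854, 724, 814 and 902 normalized counts in control and 661, 661, 609, 678 and 746 in diabetic libraries, which overlapped by 1 library on each side. Pfkl had -0.25 (SE 0.09, unadjusted p = 0.00604, adjusted p = 0.711) and Tpi1 -0.20 (SE 0.10, unadjusted p = 0.0431, adjusted p = 0.9998) at this time point. At ZT9 and ZT13 no member had an unadjusted p under 0.05, and the median differences of the members were 0.01 and -0.01.

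**Figure D4:**
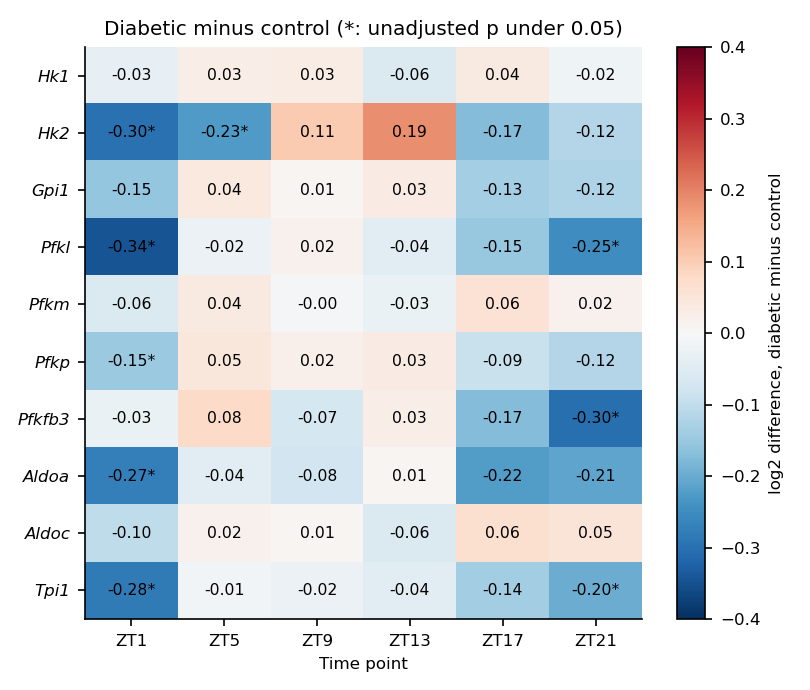
The log2 difference of each member (rows) between diabetic and control retinas at each time point (columns), in red where diabetic is higher and blue where lower, with an asterisk at an unadjusted p under 0.05. The 9 asterisks all stand on blue cells, 5 of them at ZT1 and 3 at ZT21, and none passed after adjustment.

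Isoenzymes of the same step can be compared within a library as shares of their summed counts per kilobase of the principal transcript, a ratio that does not depend on the scaling between libraries. Hk2 held 31.9% ± 2.06 (SD, n = 6) of the hexokinase sum at ZT5 and 44.7% ± 4.15 (SD, n = 5) at ZT17 in control retinas, and 28.4% ± 2.69 (SD, n = 5) and 41.1% ± 1.70 (SD, n = 4) in diabetic retinas. Pfkl held 28.3% ± 1.38 (SD, n = 6) of the phosphofructokinase sum at ZT5 and 32.6% ± 3.30 (SD, n = 5) at ZT17 in control retinas, where Pfkp held the larger share by this length, 57.2% ± 1.73 and 55.9% ± 3.75. Per kilobase of all annotated exons, Pfkl held 34.3% and Pfkp 38.5% at ZT5 in control retinas, and 39.98% and 38.1% at ZT17. By that length Hk2 held 48.9% and 62.2% of the hexokinase sum at these time points. Which isoenzyme holds the larger share thus depends on the length used. Aldoc held 9.21% ± 0.39 (SD, n = 6) of the aldolase sum at ZT5 and 7.11% ± 0.41 (SD, n = 5) at ZT17 in control retinas, and 9.57% ± 0.39 (SD, n = 5) and 8.53% ± 0.16 (SD, n = 4) in diabetic retinas. At ZT17 the Aldoc shares were 6.68% to 7.52% in control and 8.39% to 8.75% in diabetic libraries, and at ZT21 6.69% to 8.03% and 8.20% to 8.90%, without overlap at either time point. Each had an exact two-sided permutation p of 0.00794, the smallest that 126 arrangements allow, and an adjusted p of 0.0714 over the 18 shares and time points compared, so neither passed. These comparisons were chosen after the values were seen. The next smallest was Aldoc at ZT1 (exact p = 0.0159, adjusted p = 0.0952), and no share of Hk2 or Pfkl had an adjusted p under 0.143. Of the 58 fits that left out 1 library, the one without control ZT1 replicate 6, a library with lens transcripts, gave an adjusted p of 0.0476 for Aldoc at ZT17, for Aldoc at ZT21 and for Hk2 at ZT1 (-6.0 percentage points, against -4.15 with all libraries). The Aldoc differences at ZT17 (1.42 percentage points) and ZT21 (1.26) were unchanged in that fit, which left out a ZT1 library. Their adjusted p moved only because the adjustment is shared by all 18 comparisons.

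**Figure D5:**
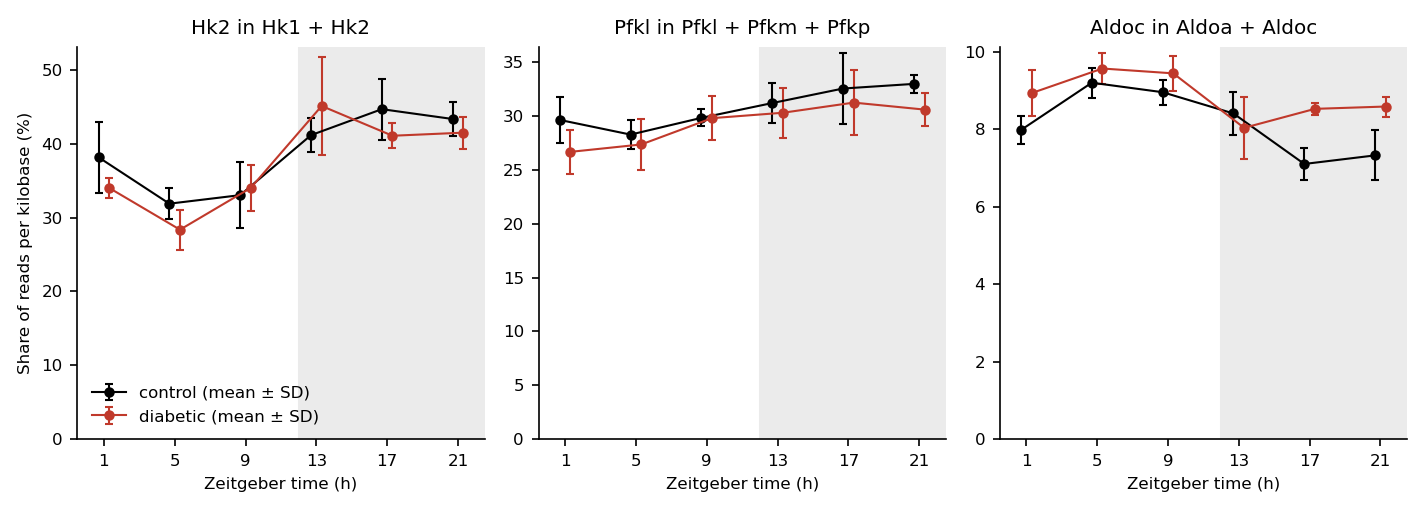
Share of reads per kilobase of the principal transcript in percent (y) held by Hk2, Pfkl and Aldoc within their own isoenzyme family against Zeitgeber time in hours (x), as means with SD bars for control (black) and diabetic (red) retinas. Mean Hk2 shares were 31.9% and 28.4% at ZT5 and 44.7% and 41.1% at ZT17 in control and diabetic retinas, and the Aldoc shares of the genotypes part at ZT17 and ZT21.

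Genes around the upper arm moved to different degrees. Of 13 other genes of the upper arm that could be tested (of 15), 3 were higher and 2 lower at ZT17 than at ZT5 in control retinas, and 1 was higher and 2 lower in diabetic retinas, where 7.42% of all genes were higher and 7.67% lower in control and 3.63% and 3.73% in diabetic retinas. The same shares of all genes stand beside the lists that follow. Slc2a1, the main glucose transporter of the blood-retinal barrier, rose by 0.64 (SE 0.09) and 0.48 (SE 0.10) on the log2 scale in control and diabetic retinas, with edgeR adjusted p = 2.44e-06 and 0.00137. Hkdc1, a further hexokinase domain gene, fell by 0.44 (SE 0.11) and by 0.78 (SE 0.12), with edgeR adjusted p = 0.00439 and 1.32e-05, opposite in sign to Hk2. Tigar, a phosphatase that lowers the activator of phosphofructokinase, rose by 0.27 (SE 0.07, edgeR adjusted p = 0.00492) in control retinas, and Pfkfb4 fell by 0.28 (SE 0.08, adjusted p = 0.0175). Fbp1 and Fbp2, which encode the reverse enzyme, were not tested, with means of 0.318 and 0.125 normalized counts over all libraries.

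Of the lower arm and lactate dehydrogenase, 7 of 9 tested genes were higher at ZT17 in control and 4 of 9 in diabetic retinas, and none was lower in either. Ldha, which makes lactate, rose by 0.48 (SE 0.07, edgeR adjusted p = 1.34e-06) in control and by 0.28 (SE 0.08, adjusted p = 0.0134) in diabetic retinas. Pgam1 rose by 0.47 (SE 0.07, edgeR adjusted p = 1.05e-05) and 0.44 (SE 0.08, adjusted p = 0.000247), and Pgk1 by 0.54 (SE 0.10, adjusted p = 0.000167) and 0.42 (SE 0.11, adjusted p = 0.0113). The median log2 difference of this list was 0.42 in control and 0.27 in diabetic retinas, close to the 0.48 and 0.31 of the upper arm members. Of 11 tested genes of oxygen sensing and HIF1 targets, 4 were higher in control and 2 in diabetic retinas, with Egln1, the prolyl hydroxylase that marks hypoxia-inducible factors for destruction, at 0.62 (SE 0.09, edgeR adjusted p = 8.33e-07) and 0.50 (SE 0.10, adjusted p = 0.000363). Hif1a, named after its values were seen, had relative amplitudes of 2.5% (control) and 2.29% (diabetic), with empirical permutation p = 0.389 and 0.236. For the interaction of genotype and cosine none of these genes passed, and the smallest unadjusted edgeR p-values were 0.000819 for Egln1, 0.00187 for Ldha, 0.00257 for Pdk1 and 0.00488 for Hkdc1. The study had also named Egln1, Ldha, Pdk1 and Slc2a1 from these samples.

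In the test of time point over both genotypes, 9 of 10 members passed, all but Pfkm, against 25.9% of all genes. Hk2 had the smallest p of the members in it (edgeR, p = 1.39e-22), and the genes with the most similar course were sought by Pearson's r over the 12 group means of log2 CPM, among 16187 genes with a mean CPM of at least 1. These were Esrrb (r = 0.98), an orphan nuclear receptor of rods, Rhobtb1 (r = 0.98), Drd4 (r = 0.97), the dopamine receptor of photoreceptors, Rorb (r = 0.97), a nuclear receptor needed for photoreceptor development, and Taok3 (r = 0.97). Their group means spanned between 0.49 for Taok3 and 1.35 for Drd4 on the log2 scale. Among the members, Pfkl ranked at place 27 of this order (r = 0.94), Gpi1 at 54 (r = 0.92), Tpi1 at 67 (r = 0.91) and Aldoa at 108 (r = 0.89), while Pfkfb3 had r = 0.62. The 12 points are shared by all genes, and the values describe these libraries.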

How the data were processed

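RNA of whole retinas was isolated with a Qiagen RNeasy kit, and libraries were made with the KAPA RNA HyperPrep kit with RiboErase. Per the study's methods and the submitters' processing notes, the authors used STAR 2.7.4a for alignment to GRCm38.p5, the Gencode M15 gene models and HTSeq 0.11.1 for counting. The deposited table holds raw counts of reads per gene symbol, with no normalization, for 58 libraries and 52459 symbols, of which 15226 had no read. The strand setting of the counting is not given in the sources used here. Samples were grouped by genotype and Zeitgeber time from their labels.

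Counts were normalized with DESeq2 size factors for display, the rhythm tests and the expression minimum, which kept genes with a median above 4. edgeR 4.0.16 (R 4.3.3, TMM factors, quasi-likelihood test, Benjamini-Hochberg adjustment over all 19138 genes) gave the differences between genotypes, overall and at each time point, the differences between time points, and the interaction of genotype and a 24 h cosine. Calls are at an adjusted p of 0.05 unless said otherwise. Rhythm was tested with an empirical JTK_CYCLE written anew (30 waveforms of 6 phases and 5 asymmetries, 1000000 shuffled series), and phases with a least-squares cosine, with normal 95% intervals. The differential rhythm test of the study was replaced by the interaction of genotype and cosine. A rank-based regression of the transcripts rhythmic in either genotype was an alternative. Python 3.11.15 with numpy 2.4.6, pandas 2.3.3 and scipy 1.17.1 was used. Tests run on simulated data were those of genotype over all time points, ZT17 against ZT5 and the cosine in control retinas, and the interaction. The empirical JTK_CYCLE and the rank-based regression were also run on such data, and the other tests were not. The phase shift simulated for the interaction and the rank-based regression was larger than any advance of the members. Alternatives were DESeq2 1.42.0, other size factors and filters, a replicate block, fits without single libraries or time points and, chosen after seeing the data, a GC and length correction the removal of 3 libraries with lens transcripts and a fold of group means for the rhythm calls. p-values measure the spread between mice as the labels give them, and depths of 7773117 to 22147398 reads set the counting error.

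The 10 members and the pathway lists were chosen with earlier results of these data known. Values of the members are given in the comparisons, and of each list at most 4 of its tested genes, those with the smallest adjusted p. Fbp1 and Fbp2, which were not tested, and Hif1a were named outside this rule. Promoter windows come from RefSeq (GRCm38.p6). Positions are on GRCm38 (Gencode M21) and were Hk1 chr10:62268855-62379908, Hk2 chr6:82725025-82774454, Gpi1 chr7:34201330-34230336, Pfkl chr10:77986947-78010083, Pfkp chr13:6579768-6648777, Pfkfb3 chr2:11471433-11554077, Aldoa chr7:126795234-126800751 and Tpi1 chr6:124810586-124814296 on the minus strand, and Pfkm chr15:98092589-98132451 and Aldoc chr11:78322968-78327781 on the plus strand. Aldoa names 2 loci in this annotation, of which ENSMUSG00000030695 was used. No column of the authors' own comparisons was used.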

Additional observations from a re-analysis of the deposited data

Results flagged for a closer look

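Of 120 groups of 4 to 6 libraries (10 members in 12 groups), 10 held a library whose distance to the nearest of the others passed Dixon's critical value, where chance gives about 1 in 20. Diabetic ZT5 replicate 4 stood apart for Hk1, with 14492 normalized counts against 10763 to 11046 in the others, and for Aldoa, with 27129 against 20585 to 22240. Diabetic ZT9 replicate 4 held 11569 of Gpi1 against 8386 to 9159. Diabetic ZT5 replicate 5 held 12313 of Pfkp against 9264 to 9912. Pfkfb3 stood apart in control ZT1 replicate 1 (937 against 806 to 824), control ZT13 replicate 5 (1112 against 773 to 809) and diabetic ZT1 replicate 1 (891 against 790 to 818). Control ZT21 replicate 4 held 5448 of Aldoc against 4515 to 4652. Libraries on the low side were diabetic ZT21 replicate 2 for Aldoa (23792 against 28960 to 31033) and diabetic ZT13 replicate 3 for Tpi1 (5535 against 6104 to 6172).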

How the results depend on the processing

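Of 427 recomputed counts of called members, 2 moved by more than 1.5 times. Over all time points, 1 member, Pfkl, differed between genotypes with the time point as a further term, against 0, and at single time points 1 call, that of Pfkl at ZT1, was made after the GC and length correction, against 0. The shares of all genes called in these fits are not given here. The numbers of called members with each library left out ranged from 7 to 9 for ZT17 against ZT5 in control and from 4 to 7 in diabetic retinas, from 7 to 9 for rhythm in control and from 6 to 9 in diabetic retinas, and stayed at 0 for genotype over all time points, genotype at each time point and differential rhythmicity. Of 8538 refitted single values, 117 changed side of the threshold, 44 towards a call and 73 away from one, and no called value changed sign. Of the 73, 46 ended a rhythm call of Aldoc or Hk1 with 1 library left out, and 11 with 1 time point left out. The cause of these losses was not tested.

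With the replicate number as a block, 9 members were called for ZT17 against ZT5 in control retinas (against 7, the added ones being Hk1 and Aldoc) and 6 in diabetic retinas, where 21.4% (against 15.1%) and 8.43% (against 7.35%) of all genes were called, and 0 for genotype and for differential rhythmicity. Same numbers did not correlate above 0.1 in every pair, so they were not taken as pairing: of 26 same-numbered pairs of control and diabetic libraries, 15 had deviations correlating above 0.1 (lowest -0.22, median 0.126, highest 0.578), against a median of -0.028 for libraries of other numbers. Of 52 libraries, 26 correlated best with their own number among the 4 to 6 libraries of the other genotype at their time point. This is a hint of pairing from the data, not the design, and the main tests leave it out.

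Every member had at least 326 raw counts in every library. With 4 to 6 libraries per group, the standard error of a member's log2 difference between genotypes at 1 time point was 0.07 to 0.11.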
